A study of Mus musculus with 40 samples.

Results

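The data described here are the 4 libraries, of 40 in the series and of 22 in its genotype experiment, that set the aorta of calcineurin-floxed control mice (Cn-Ctl) after 24 h of angiotensin-II (Ang-II) against the untreated Cn-Ctl aorta. The libraries were taken by their genotype and treatment labels and by no measured value. Each side held 2 libraries, replicates 2 and 3; a replicate 1 of either group was not analysed here. The series asked which aortic genes depend on calcineurin in smooth muscle cells when Ang-II raises blood pressure. By their labels the Cn-Ctl mice were males with floxed CnB1 alleles and without the Myh11-CreERT2 transgene (CnB1 is the regulatory subunit of calcineurin, encoded by Ppp3r1). The study's methods also count mice with that transgene and unfloxed CnB1 among the controls of this name, and the labels do not show any in these pools. They received tamoxifen all the same, 1 mg daily for 5 days at 10 to 12 weeks of age, as did the SM-Cn-/- mice, which carry the tamoxifen-inducible CreERT2 under the smooth muscle promoter of Myh11. At 6 weeks after tamoxifen, as in all groups of this experiment, an osmotic minipump delivered 1 µg/kg/min of Ang-II, and control mice were left without a pump. Treated Cn-Ctl mice entered the study only with a systolic pressure above 130 mmHg, so the 24 h libraries come from mice that had responded. Each library pooled 3 aortas from which adventitia and perivascular tissue had been pulled off with forceps, so the spread between libraries is the spread between pools.

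Ang-II acts mainly through the AT1 receptor, a G protein-coupled receptor that in smooth muscle cells releases calcium from intracellular stores, drives contraction and activates MAP kinases. The rise in calcium also activates calcineurin, a phosphatase made of a catalytic A subunit and the regulatory B subunit, which moves NFAT transcription factors into the nucleus. Over hours to days of hypertension the arterial wall is known to build extracellular matrix, to expand its secretory machinery and to take up inflammatory cells.

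The deposited values are read counts per gene divided by a scaled library size, called signal below. A signal is a level of 1 gene within 1 library, is not corrected for transcript length and is therefore compared between libraries and not between genes. Whole reads could be recovered from it: the untreated libraries held 6565372 and 5268664 assigned reads and the 24 h libraries 7105827 and 3968895 (replicates 2 and 3). All values below are given as untreated replicates 2 and 3, then 24 h replicates 2 and 3. A gene with 0 reads is listed at 0.0728, 0.0913, 0.0694 or 0.129 in these libraries, in that order. Fold changes are ratios of the group means, log2 fold changes come with their standard error, and p-values are those of limma adjusted by Benjamini-Hochberg over the 14424 protein-coding genes tested. The shallowest library, 24 h replicate 3, stood apart: on the first principal component of the 22 libraries (19% of the variance) it scored 60.7, against 5.5 for 24 h replicate 2 and −26.6 and −2.2 for the untreated pair. On the same side lay replicate 3 of the 6 h Cn-Ctl group (60.6) and replicates 3 and 2 of the 6 h group labelled SM-Cn-/- (64.5 and 36.6). Replicate 3 of the 24 h group labelled SM-Cn-/- (30.9) did too. Replicate 3 of the 2 h groups did not, at −47 for Cn-Ctl and −10.7 for SM-Cn-/-. Untreated replicate 3 scored −2.2 for Cn-Ctl and 8 for SM-Cn-/-. A link with the replicate number was not tested. The 24 h pair also differed more within itself than the untreated pair, with a chi-square per degree of freedom of 42.4 against 9.55. Counts without each library are therefore given beside the main counts, in the order untreated replicate 2, untreated replicate 3, 24 h replicate 2, 24 h replicate 3 unless said otherwise.

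At an adjusted p below 0.05, 465 genes were higher at 24 h (3.22% of those tested) and 345 were lower (2.39%). Of these 810 differentially expressed genes (DEGs), 616 changed more than 2-fold, 359 upward and 257 downward. The median log2 fold change over all genes was −0.017, and the median standard error was 0.397. The counts of list members below are to be read against the 3.22% and 2.39% of all genes. In 3646 genes both 24 h libraries lay above both untreated ones (25.3%) and in 3534 they lay below (24.5%), so a lack of overlap between 2 pairs of libraries is common here and is given below only beside the test. Each library mattered for the count: without untreated replicate 2, untreated replicate 3, 24 h replicate 2 or 24 h replicate 3 the DEGs numbered 240, 267, 1096 and 209. All 465 and all 345 kept their direction in each of these omissions, but 90 (19.4%) and 36 (10.4%) kept an adjusted p below 0.05 in all 4. Genes said below to hold in every omission are among these. The kept direction is a description, since the genes were called on the same libraries. The total called differs between the omissions, so list counts given for them below also move with that total. The 2978 genes of other biotypes, fitted in the same way with the whole table, held 79 DEGs (2.65%).

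**Figure D1:**
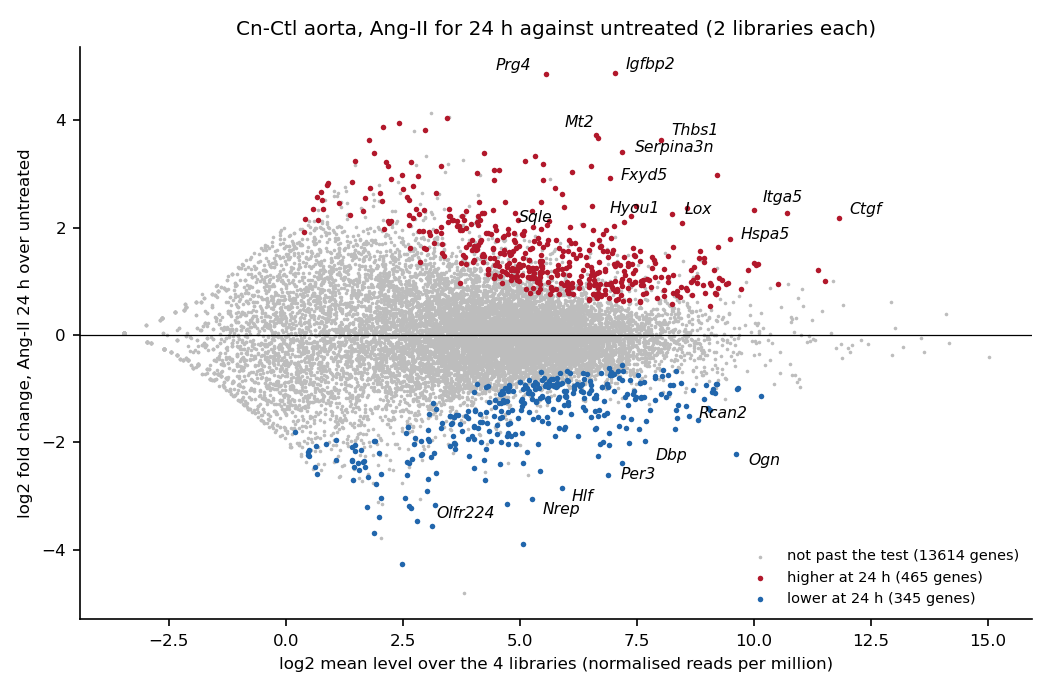
Log2 fold change of each of the 14424 protein-coding genes at 24 h of Ang-II over untreated Cn-Ctl aorta, against the mean level of the gene in the 4 libraries. Genes past the limma test are coloured: 465 lie above 0 and 345 below, and the other 13614 are grey.

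The calcineurin subunits themselves did not pass the test. Ppp3r1 (chr11:17159263-17200375, GRCm38), the floxed regulatory subunit, read 104, 78.8, 80.3 and 45.7, a log2 change of −0.57 ± 0.40 (adjusted p = 0.45). Its 2 groups overlap. The catalytic subunits Ppp3ca, Ppp3cb and Ppp3cc had log2 changes of −0.48 (adjusted p = 0.14), −0.55 (0.25) and 0.14 (0.89). Of these 4 subunits 0 were called by limma or by DESeq2 and 1 had an unadjusted p below 0.05, and their median log2 change was −0.51. Among 10 calcineurin regulators and NFAT genes, 1 rose and 1 fell, with a median of −0.03. Rcan1 (chr16:92391953-92470867), a calcineurin inhibitor whose short transcript is a known NFAT target, rose from 27.6 and 45.4 to 75.3 and 158 (3.19-fold; log2 1.61 ± 0.40, adjusted p = 0.019). Its relative Rcan2 fell from 540 and 515 to 269 and 167 (0.413-fold; −1.31 ± 0.29, 0.0085). Neither pair of values overlaps. The call of Rcan1 was lost without untreated replicate 2 or 24 h replicate 3, and that of Rcan2 without these or untreated replicate 3.

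Genes of the renin-angiotensin system and of the brakes on G protein signalling did not pass the test either: 0 of 9 and 0 of 10 were called by limma, with medians of −0.19 and −0.09 and with 2 and 3 at an unadjusted p below 0.05. DESeq2 on the recovered reads called 1 lower among the 9 and 1 higher and 1 lower among the 10. Agtr1a, which encodes an AT1 receptor of the mouse, was at the low levels of 2.69, 2.28, 3.4 and 1.42. The other AT1 gene, Agtr1b, had 54 and 19 reads in the untreated libraries and 5 and 0 after 24 h. The groups of Agtr1b do not overlap, but the change missed the threshold (log2 −2.71 ± 0.86, adjusted p = 0.068). Ace, the angiotensin-converting enzyme, split the treated pair: 135 and 164 without Ang-II, 305 and 117 with it. Rgs5, a G protein brake of smooth muscle and pericytes, went from 1782 and 1823 to 928 and 1004 without passing the test (−0.90, 0.12).

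**Figure D2:**
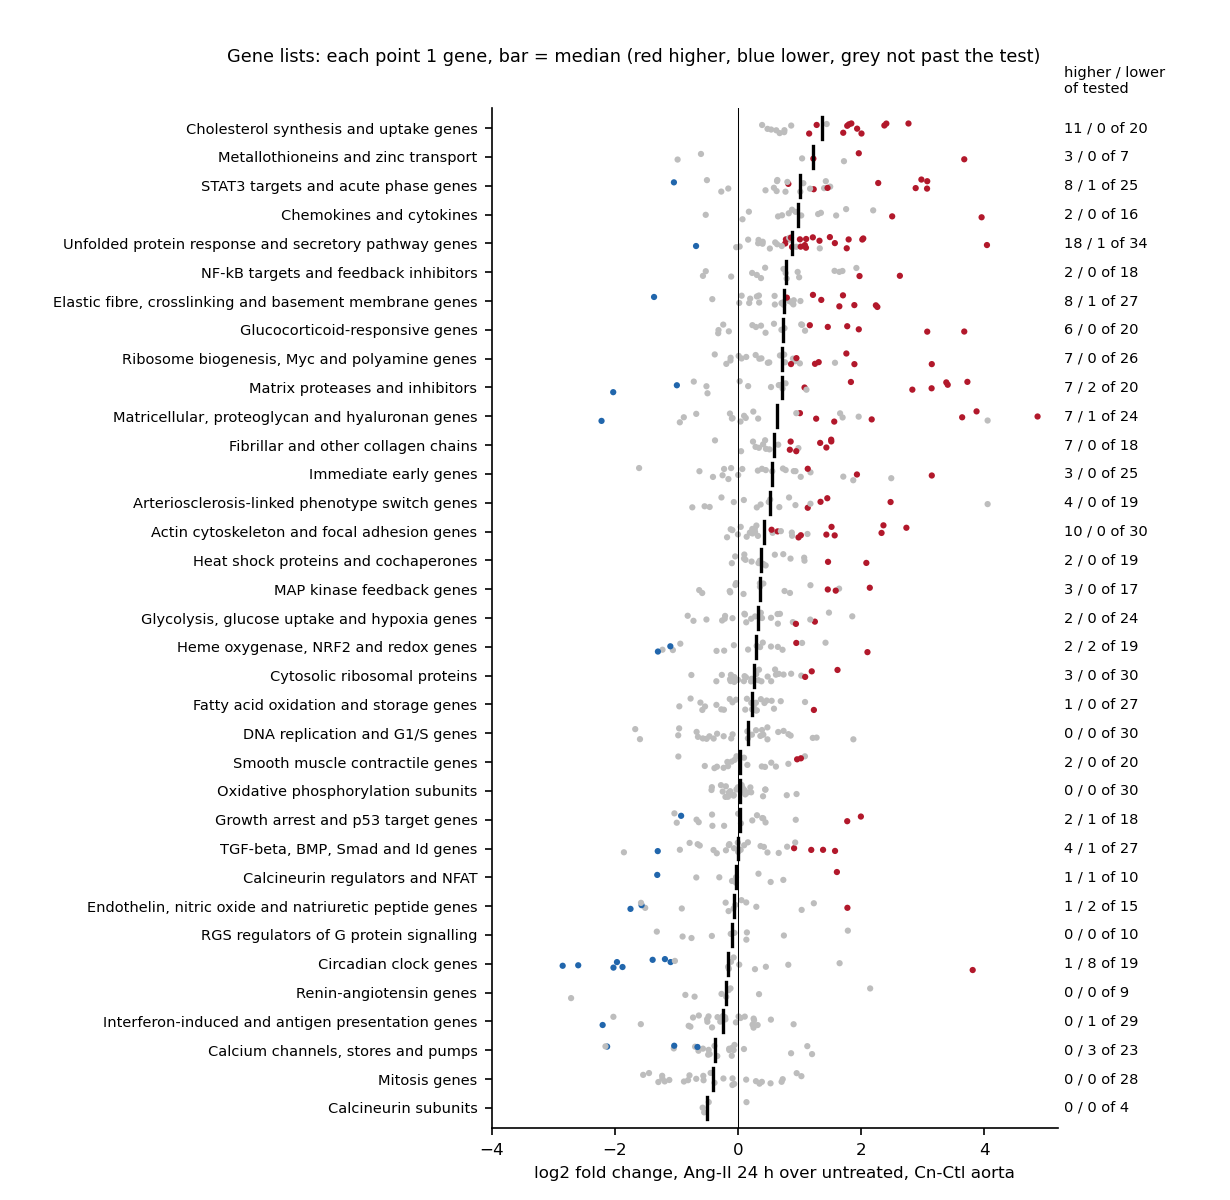
Log2 fold change, 24 h over untreated, of each gene of the 35 lists (1 point per gene, red called higher, blue called lower, grey not past the test), with the median of each list as a bar and the counts called printed at the right. Lists are ordered by their median, from 1.36 for cholesterol synthesis and uptake to −0.51 for the calcineurin subunits, and the vertical line marks 0.

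Genes of the unfolded protein response and the secretory pathway rose together. Of 34 tested, 18 rose and 1 fell, with a median log2 change of 0.87 against −0.017 over all genes. In these pathways the chaperones and disulfide isomerases of the endoplasmic reticulum (ER) fold proteins bound for export, and stress sensors in its membrane induce them when folding lags. Several such promoters carry a known element, the ER stress response element (ERSE), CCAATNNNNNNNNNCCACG, searched here on both strands of the window from 250 bases before to 50 after each RefSeq start (GRCm38.p6). It stood in 18 of 11139 tested genes with a promoter (0.162%) and in 39 of all 32851 windows (0.119%). Of the 29 list members with a promoter it stood in 7 (24.1%), in 5 of the 14 that rose (35.7%) and in 2 of the 15 that did not (13.3%). The list was chosen for the pathway in which the element is known, so its higher share was set in advance. The split by rise was not tested. The 7 stretches follow because they hold the element beside genes of this list, with 25 bases on either side, read on the strand of the gene and with the element in capitals.
Hspa5, chr2:34772000-34772068, plus strand: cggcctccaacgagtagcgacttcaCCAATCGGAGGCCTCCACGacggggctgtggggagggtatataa
Pdia6, chr12:17266466-17266534, plus strand: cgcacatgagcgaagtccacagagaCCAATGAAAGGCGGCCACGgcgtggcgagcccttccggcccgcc
Creld2, chr15:88819495-88819563, plus strand: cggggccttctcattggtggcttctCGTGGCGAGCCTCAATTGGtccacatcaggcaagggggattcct
Calr, chr8:84847050-84847118, minus strand: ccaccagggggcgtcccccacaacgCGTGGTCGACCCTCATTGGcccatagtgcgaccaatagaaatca
Hsp90b1, chr10:86705508-86705681, minus strand: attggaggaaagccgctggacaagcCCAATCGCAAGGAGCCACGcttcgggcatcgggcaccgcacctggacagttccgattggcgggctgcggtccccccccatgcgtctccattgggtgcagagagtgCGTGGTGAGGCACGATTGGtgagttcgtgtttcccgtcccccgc
Canx, chr11:50325775-50325843, minus strand: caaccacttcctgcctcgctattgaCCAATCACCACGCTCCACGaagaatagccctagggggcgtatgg
Dnajc3, chr14:118937802-118937870, plus strand: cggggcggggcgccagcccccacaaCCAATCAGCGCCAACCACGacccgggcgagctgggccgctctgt
Hsp90b1 holds 2 copies, 1 in each orientation, and Creld2 and Calr hold it on the opposite strand. A match describes letters in a window and shows no factor bound there.

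The first 5 of these genes rose and the last 2 did not pass the test. Hspa5, the ER chaperone BiP, rose from 317 and 318 to 979 and 1252 (3.51-fold; log2 1.80 ± 0.23, adjusted p = 8.8e-05). The BiP cochaperone Hyou1 (chr9:44379490-44392369) rose from 41.9 and 59.2 to 182 and 233 (2.04 ± 0.22, 1.1e-05). In both genes the treated pair lies well above the untreated pair. Sdf2l1, a partner of BiP, had 1.24 and 0.456 without Ang-II and 19.4 and 22.4 with it (24.6-fold). Pdia6, a disulfide isomerase, went from 90.8 and 90.1 to 234 and 279 (2.84-fold, adjusted p = 0.0012), and Creld2 from 14.2 and 31.3 to 58.8 and 91 (3.29-fold, 0.0071). The secreted ER stress factor Manf rose 3.01-fold, from 56.3 and 52.8 to 148 and 181. The other chaperones moved less: Hsp90b1 rose 1.86-fold (adjusted p = 0.047), Calr 1.70-fold (0.038) and Canx read a log2 change of 0.52 ± 0.27 (0.3).

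Of the transcription factors of the response, Xbp1 rose from 111 and 102 to 254 and 242 (2.33-fold; 1.22 ± 0.20, adjusted p = 0.001) and Atf4 from 131 and 174 to 299 and 344 (2.11-fold, 0.015). Asns, which makes asparagine and is a target of Atf4, rose 4.70-fold. A further pair of stress genes on the list did not move past the test: Ddit3, the pro-apoptotic factor CHOP, read 29.5, 32.4, 37.4 and 26.5, and Herpud1, of ER-associated degradation, 139, 107, 136 and 137. The translocon, through which new proteins enter the ER, was higher as well, with Sec61a1 at 93.1, 97.7, 228 and 252 (2.52-fold, adjusted p = 0.00036). Collagen-specific folding enzymes belonged to the same rise. Serpinh1, the collagen chaperone HSP47, rose from 416 and 421 to 821 and 878 (2.03-fold, adjusted p = 0.0017), and P4hb, P4ha2, Plod1 and Fkbp10, which hydroxylate or fold procollagen, rose by 0.78, 1.10, 1.01 and 0.86 on the log2 scale. The member that fell was Crtap, a partner of collagen prolyl 3-hydroxylation, from 146 and 157 to 99.6 and 88.9 (0.623-fold; −0.68 ± 0.17, 0.019). Without untreated replicate 2, untreated replicate 3, 24 h replicate 2 or 24 h replicate 3, 9, 10, 15 and 9 of the 34 were called higher, and Crtap was called lower in the third of these alone. Hspa5, Hyou1, Manf, Pdia6, Sec61a1, Serpinh1, P4ha2 and Xbp1 held in every omission.

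Cholesterol synthesis and uptake showed the highest median of the 35 lists, 1.36. All 20 of 20 members had a positive change, against 7060 of all 14424 genes. Of the 20 members 11 passed the test, all upward, against 3.22% of all genes. The list was chosen with earlier results of these data known. The pathway runs from acetyl-CoA through mevalonate and squalene to cholesterol, and its genes are induced by SREBP2 when membrane sterol falls. At the mevalonate steps, Hmgcs1, the synthase, rose from 59.6 and 64.2 to 148 and 130 (2.24-fold, adjusted p = 0.027). Mvk, Mvd and Idi1 rose 4.22-fold, 8.97-fold and 3.52-fold, Mvd from a low level of 1.09 and 1.55. Fdps (chr3:89093588-89101959), which makes farnesyl pyrophosphate, went from 21.6 and 38.6 to 154 and 158 (5.18-fold; 2.41 ± 0.37, 0.00067). 26.7% of its exon bases overlap a second gene model on the same strand.

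At the squalene and sterol steps, Sqle (chr15:59315077-59331192), the epoxidase, rose from 23.8 and 16 to 101 and 106 (5.21-fold; 2.38 ± 0.37, adjusted p = 0.00064). Cyp51, the sterol demethylase, rose 4.07-fold, Msmo1 3.30-fold and the cyclase Lss by 1.28 on the log2 scale. In all 11 called genes of the list both treated libraries lay above both untreated ones. That held for 25.3% of all genes, and a call upward makes it likely. Srebf2, which encodes SREBP2, read 59.8, 56.7, 108 and 90.2 without passing the test (0.76, 0.1). The counts called without untreated replicate 2, untreated replicate 3, 24 h replicate 2 and 24 h replicate 3 were 7, 4, 8 and 5 of 20, and Fdps and Sqle held in every omission.

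Matrix genes rose in each of the 4 lists that covered them. Of 27 elastic fibre, crosslinking and basement membrane genes, 8 rose and 1 fell (median 0.74), and of 18 collagen chains 7 rose and 0 fell (0.58). Of 24 matricellular, proteoglycan and hyaluronan genes, 7 rose and 1 fell (0.64), and of 20 matrix proteases and inhibitors 7 rose and 2 fell (0.72). Lox, which crosslinks elastin and collagen, went from 109 and 99.6 to 518 and 489 (4.83-fold; 2.27 ± 0.36, adjusted p = 0.00073). Its relatives Loxl2 and Loxl4 rose 3.29-fold and 5.58-fold, and Loxl1 by 0.79 on the log2 scale (0.048). Eln, elastin itself, read 1839, 1331, 4474 and 2964 (2.35-fold; 1.22 ± 0.27, 0.01). Fbln2, an elastic fibre glycoprotein, rose 3.65-fold, whereas Fbln5, which guides elastin onto microfibrils, fell from 823 and 631 to 472 and 165 (0.44-fold, 0.037). Hspg2, the basement membrane proteoglycan perlecan, rose 2.56-fold.

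The 7 collagen chains that passed the test were of several kinds. Col4a1, Col4a2, Col15a1 and Col18a1 of the basement membrane zone rose by 0.86, 0.95, 0.84 and 1.34 on the log2 scale, and Col12a1 and Col16a1, which sit on fibrils, by 1.51 and 1.52. Col5a2, a minor fibrillar chain, rose from 247 and 278 to 800 and 630 (2.73-fold; 1.44 ± 0.24, adjusted p = 0.001). The major chain Col1a1 read 708, 519, 1127 and 1274 without passing (0.98 ± 0.32, 0.077), Col1a2 changed by 0.05 and Col3a1 by 0.34. Fn1, fibronectin, was 2.02-fold higher and just missed the threshold with an adjusted p of 0.0515.

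The matricellular genes, whose products sit in the matrix and signal to cells, held some of the steepest changes. Thbs1 (chr2:118111876-118127133), thrombospondin 1, rose from 42.3 and 33.7 to 456 and 501 (12.6-fold; 3.65 ± 0.45, adjusted p = 6.4e-05). Prg4 (chr1:150449412-150466165), the lubricating proteoglycan of joints and serosal surfaces, rose from 2.99 and 2.28 to 79.6 and 103 (34.7-fold; 4.87 ± 0.53, 1.3e-05). Ctgf, a growth factor of fibrosis, rose 4.32-fold to 5780 and 5912, its relative Cyr61 2.40-fold and the tenascin Tnc 3.10-fold. Of the exon bases of Ctgf 23.2% overlap a transcript on the other strand. Has1, a hyaluronan synthase, had 0 reads in both untreated libraries and 6.17 and 10.5 in the treated ones, at least 16.9-fold higher when 3 reads per library are taken as the floor. Ogn, a small leucine-rich proteoglycan, went the other way, from 1567 and 1010 to 394 and 185 (−2.22 ± 0.47, 0.0066). Spp1, osteopontin, read 0.51, 1, 13.2 and 30.2 without passing (0.084).

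Among proteases and their inhibitors, Timp1, an inhibitor of metalloproteinases, rose from 10.7 and 12.5 to 90.7 and 281 (log2 3.73 ± 0.59, adjusted p = 0.00075). Mmp3, stromelysin, rose 7.95-fold and Mmp14 by 1.08 on the log2 scale. The urokinase receptor Plaur rose from 1.38 and 5.02 to 25.6 and 43.1 (10.7-fold, 0.00073) and urokinase, Plau, by 1.84. Adamts4, an aggrecanase, had 0 reads untreated and 3.82 and 3.5 at 24 h, at least 7.43-fold higher. Adamts15 fell from 78.9 and 56.9 to 17.6 and 14.6 (−2.03 ± 0.43, 0.0063) and Serpine2, a thrombin and plasminogen activator inhibitor, from 1018 and 1088 to 694 and 402 (−0.99, 0.04). The numbers called higher without untreated replicate 2, untreated replicate 3, 24 h replicate 2 or 24 h replicate 3 were 6, 5, 6 and 6 of the elastic fibre genes, 2, 2, 1 and 3 of the collagens, 3, 6, 6 and 5 of the matricellular genes and 4, 3, 5 and 5 of the proteases. In the same order, 0, 0, 1 and 0 elastic fibre genes, 0, 1, 3 and 0 matricellular genes and 0, 1, 2 and 0 proteases were called lower. Lox, Loxl2, Fbln2, Ltbp2, Hspg2, Col5a2, Thbs1, Prg4, Has1, Timp1 and Plaur held in every omission.

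Genes of the actin cytoskeleton and of focal adhesions also rose, 10 of 30 with 0 lower (median 0.43), whereas 20 contractile genes of smooth muscle had a median of 0.04 with 2 higher and 0 lower, or 1 and 1 after quantile normalization. Itga5, the fibronectin receptor subunit, rose from 313 and 357 to 1444 and 1975 (5.10-fold; 2.33 ± 0.40, adjusted p = 0.0012). Flnc, an actin crosslinker of muscle, rose 5.14-fold, Ankrd1, a stretch-responsive nuclear and sarcomeric protein, 6.71-fold, and Tpm4, a cytoskeletal tropomyosin, from 248 and 242 to 641 and 690 (2.71-fold, 0.00012). The tubulins Tubb6 and Tuba1c rose by 1.52 and 1.57 on the log2 scale, the integrin linker Tln1 by 0.98, and Tpm3 and the actin-severing Cfl1 by 0.64 and 0.55. Of the contractile genes, the actin-binding calponin Cnn1 rose from 950 and 1005 to 2428 and 1490 (2.00-fold, 0.038) and the enteric actin Actg2 from 295 and 247 to 667 and 451 (2.06-fold, 0.0061). Acta2, smooth muscle actin, read 14592, 14995, 26029 and 14373, and Myh11, the myosin heavy chain, 5747, 5725, 6780 and 3819. In both genes it was 24 h replicate 2 that stood above the others while replicate 3 lay at or below the untreated pair. The smooth muscle marker sum moved the same way, 29140, 28540, 49350 and 27290, so the defining markers of the labelled tissue were present in every library. Without untreated replicate 2, untreated replicate 3, 24 h replicate 2 or 24 h replicate 3, 5, 4, 6 and 4 of the 30 cytoskeletal genes were called higher. In the same order, the median log2 change of the 20 contractile genes was 0.11, −0.01, −0.20 and 0.31. Neither Cnn1 nor Actg2 kept its call in every omission. Itga5, Ankrd1 and Tpm4 held in every omission.

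A membrane-linked pair that no list held stood near the top of the ranking by p. Fxyd5 (chr7:31032722-31042481), a modulator of the sodium pump and of cell adhesion, rose from 27.7 and 27.1 to 174 and 258 (7.87-fold; 2.93 ± 0.26, adjusted p = 2.2e-06). Anxa2, a calcium-dependent membrane and actin linker, rose from 286 and 296 to 858 and 958 (3.12-fold; 1.64 ± 0.19, 2.3e-05). Both held in every omission. They are named because they also passed the genotype test below.

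Genes of calcium handling and of nitric oxide signalling were lower where they passed the test, and a gene of endothelin synthesis was higher. Of 23 genes for calcium channels, stores and pumps, 0 rose and 3 fell (median −0.38): Itpr1, the store release channel, from 234 and 225 to 146 and 85, Atp2b4, a plasma membrane calcium pump, from 389 and 398 to 294 and 211, and Pln, the brake on the reticulum pump, from 37.8 and 24.6 to 3.68 and 11.5 (−2.13 ± 0.52, adjusted p = 0.016). Of Pln 59.6% of exon bases overlap an antisense gene model. Of 15 endothelin, nitric oxide and natriuretic peptide genes 1 rose and 2 fell (median −0.07). Ece1, which makes active endothelin, a vasoconstrictor, rose from 41.1 and 52.1 to 161 and 160 (3.43-fold; 1.78 ± 0.22, 7.1e-05). Gucy1a3, a subunit of the nitric oxide receptor guanylate cyclase, fell from 310 and 259 to 117 and 60.2 (0.31-fold, 0.0051), and Pde5a, which breaks down its product cGMP, fell from 264 and 229 to 106 and 64.6 (0.35-fold, 0.0059). Without 24 h replicate 2, 2 calcium genes and 2 genes of the second list were called lower, and without 24 h replicate 3, 1 and 0. Without untreated replicate 2 they were 0 and 0, and without untreated replicate 3, 0 and 2. Ece1 held in every omission.

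In the TGF-beta, BMP, Smad and Id list, 4 of 27 rose and 1 fell, with a median of 0.00. Tgfb2 (chr1:186622792-186705989), a ligand, rose from 89.6 and 114 to 184 and 197 (1.87-fold; 0.91 ± 0.21, adjusted p = 0.014) and Bmp4, another ligand, by 1.19. The antagonists Fst and Fstl3 rose by 1.58 and 1.38, and Tgfbr3, the coreceptor betaglycan, fell from 101 and 81.7 to 50.2 and 26.5 (−1.30 ± 0.33, 0.019). 47.3% of the exon bases of Fstl3 overlap a gene on the other strand. Fstl3 was called in every omission, while the list counts were 1, 3, 2 and 1 higher and 0, 0, 2 and 0 lower without untreated replicate 2, untreated replicate 3, 24 h replicate 2 and 24 h replicate 3.

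Genes of inflammation rose in parts. Of 25 STAT3 targets and acute phase genes 8 rose and 1 fell (median 1.01), whereas of 16 chemokines and cytokines 2 rose (0.98), of 18 NF-kB targets 2 rose (0.78), and of 29 interferon-induced and antigen presentation genes 0 rose and 1 fell (−0.25). Over all genes 3.22% rose and 2.39% fell, and the 1 of 29 interferon-induced genes that fell lies near that share. STAT3 carries the signal of interleukin-6 type cytokines. Socs3, its feedback inhibitor, rose from 4.73 and 3.56 to 23.8 and 61.5 (10.3-fold; 3.07 ± 0.48, adjusted p = 0.00073). Stat3 itself rose from 98 and 97.5 to 179 and 167 (1.77-fold, 0.018), and the oncostatin M receptor Osmr by 1.23. Serpina3n, an acute phase protein counted above with the protease inhibitors, rose from 24.8 and 22.9 to 196 and 341 (11.2-fold; 3.41 ± 0.35, 1.1e-05). The secreted acute phase proteins Lcn2 and Hp, haptoglobin, rose 7.94-fold and 10.4-fold with wide treated pairs, 22 and 56 for Lcn2 and 354 and 1801 for Hp. Il4ra, the interleukin-4 receptor, rose from 3.71 and 6.11 to 33.4 and 44.7 (7.94-fold, 0.00032). Lifr, the receptor of leukemia inhibitory factor, was the member that fell, from 71 and 94.6 to 39.9 and 39.2.

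Ccl6, a macrophage chemokine that the list does not hold, was among the steepest rises and held in every omission, from 7.5 and 9.76 to 85.3 and 78.3 (9.47-fold; 3.18 ± 0.34, adjusted p = 1.1e-05). Ccl2, which draws monocytes, was low, at 0.51 and 1.19 against 4.51 and 10.5 (0.047), and Ccl7 had 0 and 1 reads untreated and 48 and 55 at 24 h. Of the NF-kB targets, the adhesion molecule Icam1 rose from 9.69 and 11.4 to 46.1 and 39.7 (4.07-fold, 0.0013) and the prostaglandin synthase Ptgs2 8.06-fold to 40.7 and 170. Gbp4, the interferon-induced gene that fell, read 19.6, 9.22, 0.902 and 6.08, and 0, 0, 3 and 1 interferon-induced genes were lower in the omissions. The numbers higher in the same 4 omissions, in the order used above, were 3, 5, 7 and 3 for the STAT3 list, 1, 1, 3 and 0 for chemokines and 1, 1, 4 and 1 for NF-kB. Lifr lost its call in each of the 4. Socs3, Serpina3n, Il4ra and Icam1 also held in every omission.

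Markers of cells other than smooth muscle moved with these lists. The summed signal of 9 macrophage markers was 133 and 102 untreated and 367 and 264 at 24 h. All 9 were higher in both treated libraries (25.3% of all genes were). Of the 9, 3 passed the test: the complement genes C1qa (4.15, 7.76, 30.6 and 26.3), C1qb and C1qc. The number called was 1, 2, 2 and 3 in the 4 omissions. Mesothelial markers, of the cells that cover serosal surfaces, summed to 2.55 and 3.19 untreated and 52.0 and 30.4 treated over 5 genes, of which 3 and 2 were at 0 reads in the untreated libraries. One of them, Upk1b, passed the test, from 0 reads to 7.15 and 6.34, at least 13.7-fold higher, a call that was lost in each of the 4 omissions and under quantile normalization. Msln and Upk3b read 16.3 and 9.45, and 21.9 and 11.5, at 24 h. Adventitial fibroblast markers summed to 695, 386, 1076 and 821, with 3 of 8 called, or 3, 1, 2 and 2 in the 4 omissions, among them Pi16 (111, 81.1, 311 and 259). Sums that overlapped between the groups were those of adipose tissue (323, 520, 332 and 1171), erythroid cells (35, 194, 616 and 157) and nerve (39.8, 38.4, 20.9 and 43.9). The sums of endothelium (456, 345, 511 and 541), neutrophils (4.66, 6.94, 7.08 and 8.80) and skeletal and cardiac muscle (24.3, 33.4, 101 and 47.6) were higher in both treated libraries and that of lymphocytes lower (8.81, 6.11, 4.51 and 2.20), with 0 members called by limma or DESeq2 in any of these 4 and 4, 2, 1 and 0 members at an unadjusted p below 0.05, in the order given. The part of these cells in the inflammatory, matrix and Prg4 results was not tested, and in whole aorta more cells of a type and more RNA per cell cannot be told apart.

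Genes of growth and ribosome production rose in part, and genes of the cell cycle engine did not pass the test. Of 26 genes of ribosome biogenesis, Myc and polyamines, 7 rose and 0 fell (median 0.72), whereas 0 of 30 DNA replication genes and 0 of 28 mitosis genes passed the test of limma or of DESeq2 (medians 0.16 and −0.41), with 1 member of each at an unadjusted p below 0.05. Myc, the growth-promoting transcription factor, rose from 1.67 and 1.19 to 10.2 and 26.5 (12.8-fold; 3.15 ± 0.60, adjusted p = 0.0029). Srm, which makes spermidine, rose by 1.89 on the log2 scale and Odc1, the first polyamine enzyme, from 108 and 85.1 to 187 and 163. The nucleolar proteins Bop1, Fbl and Nop2 rose by 1.76, 1.31 and 1.25 on the log2 scale. Of 30 cytosolic ribosomal proteins, Rplp0, Rplp1 and Rpl18 rose (median of the list 0.26), but genes of this family have processed copies that can share reads, so their values are uncertain, and 0, 0, 2 and 0 were called in the omissions. Among 18 growth arrest and p53 targets (median 0.03), the cell cycle inhibitor Cdkn1a rose from 29.5 and 29.7 to 90.7 and 116 and the cyclin Ccnd2 fell from 395 and 380 to 208 and 200 (−0.93 ± 0.17, 0.0024). Gadd45g was the second that rose, and 1, 0, 1 and 0 of this list were higher and 1, 1, 3 and 1 lower in the omissions. Of the biogenesis genes, 3, 1, 8 and 1 were called higher without untreated replicate 2, untreated replicate 3, 24 h replicate 2 or 24 h replicate 3, and Ccnd2 held in each.

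Metallothioneins, small zinc-binding proteins induced by metals, glucocorticoids and STAT3, rose strongly. Mt2 went from 12 and 15.4 to 131 and 248 (13.8-fold; 3.68 ± 0.39, adjusted p = 1.1e-05) and Mt1 from 36.3 and 37.7 to 110 and 193 (4.09-fold, 0.0026). With the zinc importer Slc39a14 (68.2, 66.7, 154 and 163), these were the 3 of 7 in the list that rose (median 1.22), and 3, 3, 3 and 2 were called in the 4 omissions. 73.5% of the exon bases of Mt2 overlap an antisense gene, and whether reads were counted by strand is not given in the sources used here. The other stress and metabolic lists moved less. Of 20 glucocorticoid-responsive genes 6 rose (median 0.73), Mt1, Mt2, Cdkn1a, Lcn2, Errfi1 and the kinase Map3k6, and 2, 3, 6 and 1 did in the 4 omissions. Of 19 heat shock genes 2 rose (0.37; Hspb1 4.28-fold and Hsph1), of 19 NRF2 and redox genes 2 rose and 2 fell (0.30; Hmox1 and Gclm up, Gstm1 and Aox1 down), of 24 glycolysis and hypoxia genes 2 rose (0.32; Slc2a1 and Pgk1) and of 27 fatty acid genes 1 rose (0.22; Ucp2). Over all genes 3.22% rose and 2.39% fell, and the 1 of 27 fatty acid genes lies near that share. Of 30 oxidative phosphorylation subunits 0 were called by limma or DESeq2 (0.03), with 1 at an unadjusted p below 0.05. In the omissions the numbers higher were 1, 1, 2 and 1 for heat shock, 1, 0, 1 and 0 for NRF2 (with 1, 1, 3 and 0 lower), 1, 1, 2 and 0 for glycolysis and 0, 0, 1 and 0 for fatty acids. Of 19 genes linked to a switch of smooth muscle phenotype, Klf4, Lgals3, Ly6a and S100a4 rose (median 0.52), the lectin Lgals3 from 11.9 and 13.8 to 66.3 and 81.9 (5.78-fold, 0.0002) and the transcription factor Klf4 from 36.9 and 37.1 to 66.1 and 101. In the omissions 3, 1, 4 and 2 of these genes were higher and 0, 0, 2 and 0 lower. For S100a4, 51.7% of exon bases overlap a second gene model on the same strand. Ly6a is also among the called adventitial fibroblast markers above. The part of cells other than smooth muscle in the rises of this list was not tested.

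Clock genes were the list with the most falls. Of 19 tested, 1 rose and 8 fell, with a median of −0.16. In the clock, Arntl (BMAL1) drives its repressors of the Per family and output factors such as Dbp, and these run in opposite phase to Arntl over the day. Arntl rose from 0.364 and 0.821 to 19.6 and 10.7 (3.82 ± 0.87, adjusted p = 0.012). Per3 (chr4:151003652-151044665) fell from 205 and 198 to 38.5 and 28.1 (0.165-fold; −2.60 ± 0.39, 0.00046), Dbp from 314 and 336 to 86.2 and 79.3 and Hlf from 127 and 81.5 to 19.6 and 9.45 (−2.85 ± 0.48, 0.0013). Tef, Per2, Nr1d2, Ciart and Bhlhe41 also fell, with log2 changes of −1.39, −1.10, −1.19, −2.02 and −1.88. Every one of these pairs is separated. Per3 was already low at the earlier times of Ang-II described below, at 22.8, 34.0 and 43.4 after 2 h and 85.8, 76.4 and 72.2 after 6 h. The hour of the day at which aortas were taken is not given in the sources used here, so treatment and time of day cannot be told apart. Leaving out untreated replicate 2, untreated replicate 3, 24 h replicate 2 or 24 h replicate 3 left 3, 5, 7 and 2 called lower and Arntl in none, while Per3 and Hlf held in every omission.

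The steepest rises included genes that no list held. Igfbp2 (chr1:72824503-72852474), which binds insulin-like growth factors, rose from 6.63 and 8.67 to 339 and 168 (33.1-fold; 4.88 ± 0.57, adjusted p = 2.6e-05). Pgf, placental growth factor, rose from 6.48 and 6.3 to 49.1 and 98 (11.5-fold). Both held in every omission. Krt7, an epithelial keratin, had 0.364 and 0.0913 untreated and 5.48 and 8.93 at 24 h, and Dhrs9, a retinol and steroid dehydrogenase, went from 0 reads to 3.12 and 7.9, at least 11.2-fold higher. Fgd3 and Wfdc17 rose from 1.09 and 0.274 to 5.07 and 19, and from 0.655 and 0.274 to 7.84 and 8.93.

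The steepest falls were of genes at low to middle levels. Nrep, a regulator of neuronal and wound repair, fell from 84 and 54.7 to 7.56 and 7.9 (0.112-fold; −3.05 ± 0.34, adjusted p = 1.5e-05). Cdnf, an ER-resident trophic factor related to Manf, fell from 7.65 and 7.76 to 0.486 and 0.129, the last being 0 reads. Gria1, a glutamate receptor subunit, read 21, 11.4, 2.43 and 0.129, and Ptger3, a prostaglandin E2 receptor, 14.5, 14.1, 0.624 and 2.98. Ppp1r14c, a phosphatase 1 inhibitor, fell from 12 and 21.3 to 0.763 and 2.2, with 29.2% of its exon bases overlapped by a long RNA on the other strand. The olfactory receptor Olfr224 fell from 42.9 and 52.7 to 7.42 and 3.24, and the predicted gene Gm12184 from 12.7 and 9.58 to 0 reads in both treated libraries, at least 18.7-fold lower. Tmem254c fell from 63.3 and 55.8 to 13.8 and 0.647, but it has near-identical neighbours, and its value is uncertain. Nrep, Cdnf and Olfr224 held in every omission.

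The 24 h libraries were also set against earlier times of Ang-II in Cn-Ctl mice. The 2 h and 6 h groups held 3 libraries each. At 24 h against 2 h, 280 genes were higher (1.94%) and 783 lower (5.43%), a comparison that shares its 24 h libraries with the one above. The genes that set the 2 times apart most were immediate early and heat shock genes. Of 19 heat shock genes 16 were lower at 24 h than at 2 h, and of 25 immediate early genes 19 were. Against untreated aorta, 2 h had called 18 and 19 of these higher (4.72% of all genes), 6 h 9 and 19 (2.72%) and 24 h 2 and 3. Dnajb1, an HSP40 cochaperone, read 595, 867 and 931 at 2 h, 59.1, 118 and 98.9 at 6 h, and 45.2 and 51.4 at 24 h, against 25.4 and 39.3 untreated. Atf3, a stress transcription factor, followed with 604, 960 and 1072 at 2 h, 120, 190 and 200 at 6 h, and 73.8 and 65.4 at 24 h (24 h against 2 h −3.61, adjusted p = 4.3e-07). Bag3, Jun, Nr4a3, Dnaja4, Fam46a and Map3k7cl, the other 6 of the 8 with the smallest p, had log2 changes from 2 h to 24 h of −2.54, −2.52, −3.06, −3.06, −2.46 and −2.07. Of the exon bases of Dnaja4 44.1% overlap a gene on the other strand. Map3k7cl was the one of these 8 also called against untreated aorta, below it, at 224, 203, 110 and 89.4 (−1.10 ± 0.21, 0.0029). MAP kinase feedback genes behaved alike, with 7 of 17 lower at 24 h than at 2 h, while against untreated aorta 3 of 17 were higher (median 0.36), among them Errfi1, the EGF receptor inhibitor, at 63.6, 61.2, 163 and 183. Of the 25 immediate early genes 3 were higher than untreated (median 0.56). In the omissions 0, 1, 3 and 0 of the feedback genes and 2, 2, 4 and 1 of the immediate early genes were.

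Other genes had their highest values at 24 h. Hyou1 read 89.2, 72.4 and 82.6 at 2 h and 71.1, 75.6 and 74.8 at 6 h before the 182 and 233 of 24 h (24 h against 2 h 1.34, adjusted p = 0.00027). Hspa5 had 566, 571 and 759 at 2 h and 529, 600 and 407 at 6 h. Fdps read 65.1, 48.9 and 86.4 at 2 h, 29.3, 29.1 and 45.3 at 6 h, and 154 and 158 at 24 h, against 21.6 and 38.6 untreated. Sqle had 63.9, 50.7 and 64.1 at 2 h and 28.0, 28.8 and 28.7 at 6 h. The whole cholesterol list had medians of 0.50 at 2 h and −0.01 at 6 h against untreated, with 5 and 0 of 20 called higher, and the secretory list medians of 0.60 and 0.29, with 11 and 6 of 34. Igfbp2 stayed low until 6 h, at 27.4, 9.38 and 10.6, then 20.8, 10.7 and 19.9, then 339 and 168 (24 h against 2 h 4.04, 5.1e-05). Lox and Rcan1 had their highest values at 2 h instead, 939, 771 and 911 for Lox and 368, 404 and 380 for Rcan1, and Rcan1 dropped by 1.81 on the log2 scale from 2 h to 24 h (0.0042). Rcan2 stayed between 513 and 730 in 5 of the 6 libraries of 2 h and 6 h, with 317 in the other. The count of 1063 fell to 200 without 24 h replicate 3 (20 higher, 180 lower), to 669 without 2 h replicate 1 (138 and 531) and to 621 without 2 h replicate 2 (161 and 460). Without 2 h replicate 3 the numbers were 174 and 544, and quantile normalization gave 252 and 470.

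**Figure D3:**
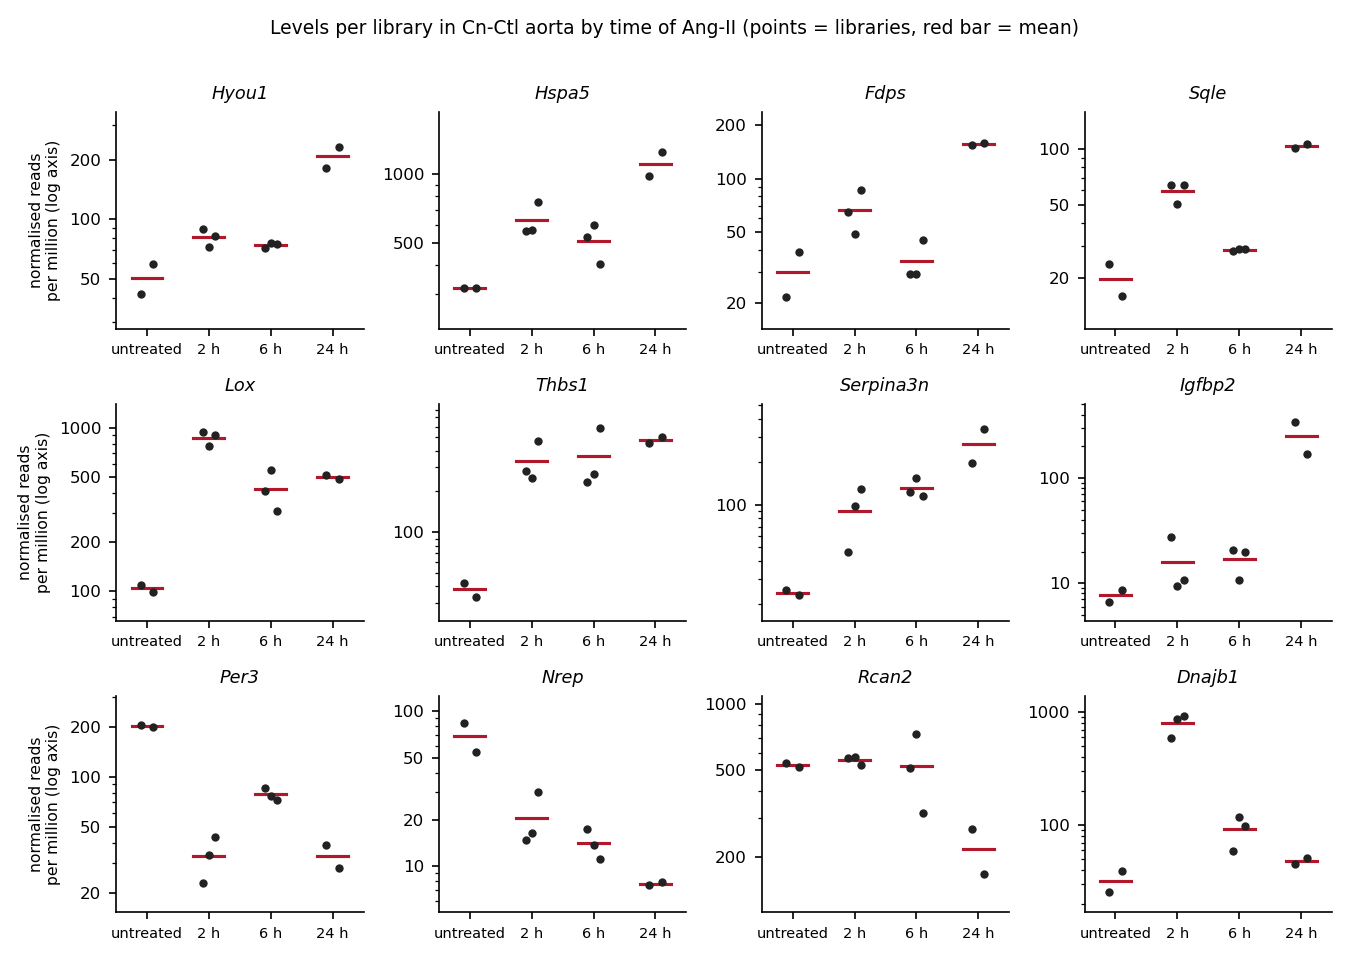
Signal of 12 genes in each Cn-Ctl library, untreated and after 2, 6 and 24 h of Ang-II, on a log axis. Each point is 1 library and the bars are group means. Dnajb1 peaks at 2 h, while Hyou1, Fdps and Igfbp2 are highest in the 24 h libraries.

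A second experiment of the series held 3 untreated and 3 Ang-II 24 h libraries of wild-type C57BL/6J males (WT), without floxed alleles or tamoxifen, selected for systolic pressure in the same way. It shares no library with the Cn-Ctl comparison, was normalised apart and was deeper, and each table was tested on its own. There 2483 genes were higher (18.1%) and 2324 lower (16.9%), with a median standard error of 0.153. Of the 463 Cn-Ctl genes that rose and are measured in WT, 453 had the same sign (97.8%) and 414 were also called higher there (89.4%, and 16.9% of the WT genes that rose). Of 342 that fell, 335 had the same sign (98.0%) and 289 were called lower (84.5%, and 12.5% of the WT list). No gene was called in opposite directions. Over all 13432 genes that both tables hold, 18.3% and 17.3% were called, and the log2 changes correlated across genes with Pearson's r of 0.66, a description in which genes are not independent replicates.

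The genes named above gave these log2 changes in WT: 1.71 for Hspa5, 1.33 for Hyou1, 2.02 for Fdps, 1.80 for Sqle, 2.26 for Lox, 3.44 for Thbs1, 5.40 for Prg4, 3.59 for Igfbp2, 4.71 for Serpina3n and 2.47 for Fxyd5. Prg4 rose from a mean of 5.89 to 263 and Serpina3n from 11.9 to 327. Per3, Nrep and Rcan2 fell there, with changes of −1.78, −1.99 and −1.50. In the gene lists, WT called 27 of 34 secretory genes, 16 of 19 cholesterol genes and 12 of 16 chemokines and cytokines higher (18.1% of all genes). It called 10 of 19 clock genes lower (16.9% of all genes). In Cn-Ctl 3.22% and 2.39% of all genes were called, so list counts are not compared between the tables. Other lists differed in sign between the tables: the 20 contractile genes had a median of −0.24 in WT with 2 higher and 7 lower, and the 29 interferon-induced genes a median of 0.39 with 24 positive, against 0.04 and −0.25 (10 positive) in Cn-Ctl. These differences were not tested. Exceptions among the named genes were Tgfb2 (0.53, adjusted p = 0.16) and some of the steepest falls: Gm12184 changed by −0.28 and Tmem254c by −0.14 in WT, without passing its test.

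**Figure D4:**
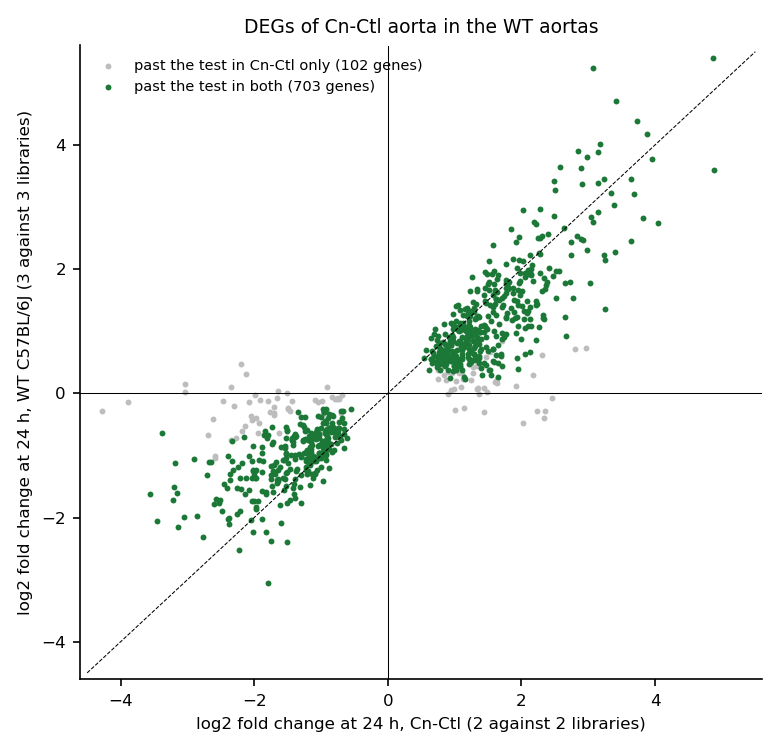
Log2 fold change at 24 h of Ang-II in Cn-Ctl aorta (horizontal) and in WT aorta (vertical). Only genes called in Cn-Ctl and measured in WT are drawn. The 703 green ones were also called in WT in the same direction and the 102 grey ones were not. The dashed line marks equal change.

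The last comparison set the Cn-Ctl response against that of 3 untreated and 3 Ang-II 24 h libraries labelled SM-Cn-/-. According to the study's methods, recombination of CnB1 was checked by PCR on aortic tissue, and mice labelled SM-Cn-/- without it were removed. By immunoblot the study also found less protein of the regulatory and catalytic subunits in aortic extracts of SM-Cn-/- mice than in those of controls. The RNA signal of the targeted gene overlaps between the labels. Ppp3r1 read 83.5, 69.5 and 48.9 untreated and 84.1, 84.4 and 54.4 at 24 h in the libraries labelled SM-Cn-/-, which overlaps the 104, 78.8, 80.3 and 45.7 of Cn-Ctl. Whether the reads of Ppp3r1 come from the deleted part of the gene, or from other cells, was not tested, and 14.3% of its exon bases overlap a neighbouring gene on the same strand. In the libraries labelled SM-Cn-/-, 92 genes were higher at 24 h (0.638%) and 22 lower (0.153%), with 1660 at an unadjusted p below 0.05. Of the Cn-Ctl genes that rose, 37 were called there too (7.96% of them and 40.2% of the 92), and of those that fell 6 were (1.74% and 27.3% of the 22). The Cn-Ctl genes had a median log2 change of 1.37 in Cn-Ctl and 0.34 in the libraries labelled SM-Cn-/- for those that rose, and −1.39 and −0.21 for those that fell. They had been picked by the Cn-Ctl value, so the smaller second median is a description. Of the genes that rose 356 (76.6%) and of those that fell 254 (73.6%) kept the sign, where 49.8% of all genes had a positive and 50.2% a negative change.

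The difference between the 2 responses passed its own test, the interaction, in 74 genes (0.513%), with 51 more positive in Cn-Ctl and 23 more negative. It shares all 4 libraries with the Cn-Ctl comparison. Treated Cn-Ctl mice were selected for a systolic pressure above 130 mmHg. By the study's methods the SM-Cn-/- mice were not, and none of them showed a raised pressure. By their labels the Cn-Ctl mice also lack the Myh11-CreERT2 transgene. Calcineurin, the transgene and the selection cannot be told apart in this test. Tgfb2 had the smallest p: in the libraries labelled SM-Cn-/- it went from 117, 82.3 and 84.6 to 39.3, 36.1 and 30.8, so that it fell there (−1.39, adjusted p = 0.00034) while it rose in Cn-Ctl (interaction 2.31 ± 0.28, 0.00048). Loxl2 read 49.2, 57.8 and 42.8 and then 42.6, 33.6 and 30.0 (interaction 2.20 ± 0.28, 0.00051). Anxa2 read 407, 342 and 317 and then 321, 295 and 299 (1.85 ± 0.24). The changes of these 2 genes in the libraries labelled SM-Cn-/- were −0.49 and −0.21. Fxyd5, Tpm4 and Thbs1 had interactions of 2.25 ± 0.34, 1.56 ± 0.24 and 3.55 ± 0.58, and the libraries labelled SM-Cn-/- at 24 h read 54.7, 54.3 and 59.6 for Fxyd5, 236, 253 and 227 for Tpm4 and 159, 97.4 and 50.4 for Thbs1.

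Cholesterol and secretory genes were among them. Sqle read 44.9, 22.3 and 20.1 untreated and between 14.1 and 18.9 at 24 h in the libraries labelled SM-Cn-/- (interaction 3.14 ± 0.47, adjusted p = 0.003), and Msmo1, Fdps, Cyp51 and Idi1 had interactions of 2.58, 2.68, 2.58 and 2.27. Of the 20 cholesterol genes 6 passed, these 5 among them, and the list's median change was 1.36 in Cn-Ctl and −0.25 in the libraries labelled SM-Cn-/-. Of the 34 secretory genes 4 passed: Hspa5 (508, 394 and 399, then 466, 535 and 516; 1.57 ± 0.30, 0.019), Hyou1 (1.46 ± 0.28, 0.023), Manf (1.20, 0.027) and Serpinh1 (1.05, 0.041), with list medians of 0.87 and 0.09. Of the genes named above, Igfbp2, Prg4, Timp1 and Serpina3n also passed, with interactions of 3.51, 3.42, 3.44 and 2.11.

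Mt1 and Mt2 rose under both labels. Mt1 went from 32.9, 55.8 and 33.6 to 148, 193 and 138 in the libraries labelled SM-Cn-/- (log2 1.99, adjusted p = 0.0026), with an interaction of −0.02 ± 0.48. Mt2 went from values of up to 23.1 to 104, 176 and 89.0 (2.68, 0.00034), with an interaction of 1.00 ± 0.51 that did not pass (0.48). The intervals are wide, so a difference in Mt2 is not shown absent. Rcan1, which rose in Cn-Ctl, and Rcan2, which fell there, had interactions of 1.77 (0.13) and −1.48 (0.076) that did not pass. Dbp changed by −0.80 in the libraries labelled SM-Cn-/- (0.37), and its interaction, −1.17, did not pass either (0.44). The 74 genes depended on the libraries: without untreated Cn-Ctl replicate 2 or replicate 3 they were 10 and 10, without 24 h replicate 2 they were 375 and without 24 h replicate 3 they were 9.

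**Figure D5:**
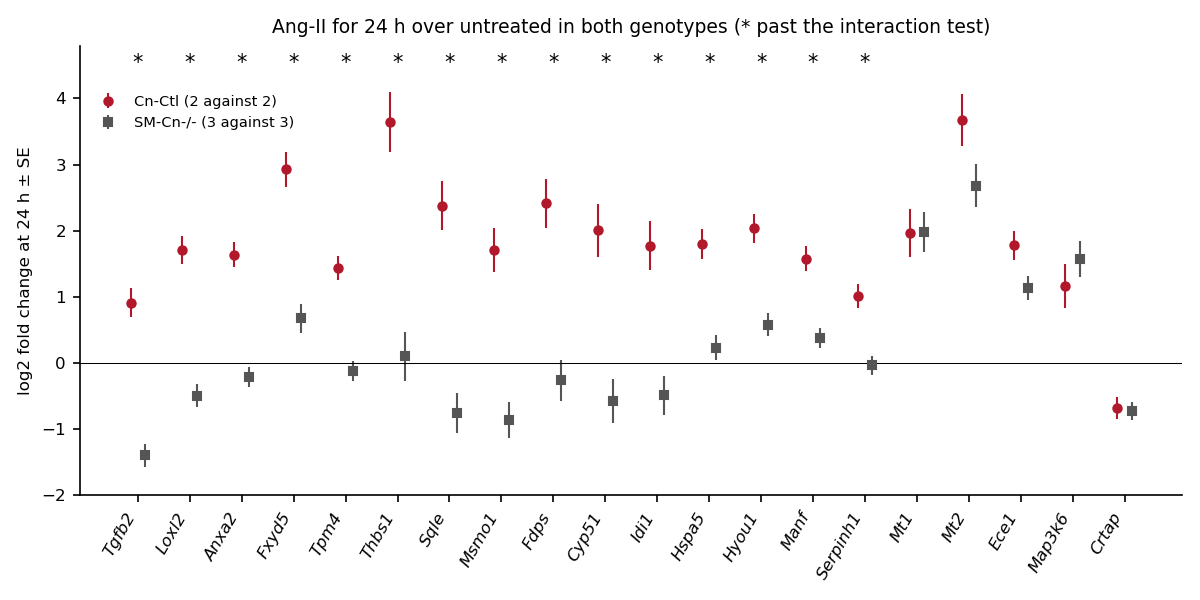
Log2 fold change at 24 h over untreated, with its standard error, in Cn-Ctl libraries and in libraries labelled SM-Cn-/- for 20 genes. A star marks the 15 genes past the interaction test, among them Tgfb2, Loxl2, Sqle and Hspa5, and Mt1, Mt2, Ece1, Map3k6 and Crtap carry none.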

How the data were processed

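Poly(A) RNA of pooled aortas was sequenced on an Illumina GAIIx, and per the submitters' notes reads were aligned with Bowtie 0.12.7 to mouse transcripts (GRCm38) and quantified with RSEM 1.16. The authors deposited a table of normalised signal per gene for each experiment: reads divided by a scaled library size (as CPM), with an offset of 0.5 read. From the signal whole reads were recovered for 100.0% of values. The limits at 0 reads cover counting error only. The signal was log2-transformed after adding a pseudocount of 0.5 and fitted with limma 3.58.1 (R 4.3.3, trend) over all groups of a table, after a filter at a signal of 1 in at least 2 libraries that removed no gene. Of 17402 genes listed, 14424 were protein-coding in GENCODE and tested. The fold change on this scale understates changes of low genes. Alternatives used edgeR 4.0.16 and DESeq2 1.42.0 on the reads, other scalings, filters and pseudocounts, a replicate block and omission of each library. Named genes were the calcineurin, AT1 receptor and Rcan1 genes, and up to 20 and 15 steepest changes without overlap (mean of at least 5 in a group). To these came the called members of the 35 lists and of the cell type marker lists (817 genes together, 788 tested). Where fewer than 2 members passed, up to 3 with the highest mean level were taken. The 8 smallest p of the interaction and of 24 h against 2 h were also named. Genes named outside this rule, such as uncalled list members, were chosen after their values were seen. The members and lists were chosen with earlier results of these data known. Some genes chosen by these criteria have been omitted from the text.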

Additional observations from a re-analysis of the deposited data

Results flagged for a closer look

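The response to 24 h of Ang-II differed between Cn-Ctl and the libraries labelled SM-Cn-/- in 74 genes by the interaction test of limma. The 7 with the smallest p that are reported were Tgfb2 (log2 difference of the responses, Cn-Ctl minus SM-Cn-/-, 2.31), Loxl2 (2.20), Anxa2 (1.85), Fxyd5 (2.25), Sqle (3.14), Tpm4 (1.56) and Thbs1 (3.55). In data outside the protein-coding comparison, 79 of 2978 genes that are not protein-coding passed the 24 h test (2.65%), 36 higher and 43 lower. With 2 libraries a side, Dixon's test for a value far from its group cannot be applied to single genes.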

How the results depend on the processing

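With 2 pools a side, 1 library sets much of each count. Leaving out 1 library at a time gave 209 to 1096 DEGs at 24 h in place of 810, 153 to 410 in place of 465 higher and 56 to 686 in place of 345 lower, 9 to 375 in place of 74 for the interaction and 200 to 1227 in place of 1063 for 24 h against 2 h. The lone library left in a group is then taken to vary like the other groups. The cause was not tested. Fitting only the 4 libraries compared gave 200 DEGs (144 higher, 56 lower), with fewer residual degrees of freedom. The interaction count was 289 with DESeq2 and 120 with the replicate block. The numbers were taken as a shared label only, since the labels do not say that they mark a batch. The deviations of same-numbered libraries correlated at 0.158. With 2 libraries a group both pairs must give the same value, so it is 1 value and cannot decide whether the numbers mark a batch. With the replicate block 951 genes were called at 24 h, 1028 at 24 h against 2 h and 4621 in WT. Counts at 24 h under the other settings lay between 706 (edgeR) and 1165 (DESeq2). For the interaction, 24 h against 2 h and WT, edgeR was added after the data were seen and gave 61, 919 and 4834. Called genes were picked on these same libraries, so their sign under the settings below is a description. Of 178 called genes that the text or its lists name, 0 changed sign under any setting, while 94, 94, 47 and 103 lost the call without untreated replicate 2, untreated replicate 3, 24 h replicate 2 and 24 h replicate 3, 93 when the 4 libraries were fitted alone, 16 with edgeR, 9 with quantile normalization and 2 with the replicate block. Uncalled genes that changed sign in 1 or more omissions, with their range over these, were Ace (−0.346 to 1.031), Acta2 (−0.041 to 0.815), Agtr1a (−0.632 to 0.388), Atp6ap2 (−0.559 to 0.024), Dnaja4 (−0.007 to 0.068), Fam46a (−0.545 to 0.335), H2-D1 (−0.243 to 0.262), Myh11 (−0.587 to 0.241), Rgs3 (−0.017 to 0.308) and Rgs4 (−0.185 to 0.457), and quantile normalization put Dnaja4 at −0.010 and H2-D1 at −0.012. In the shallowest library, 24 h replicate 3, 3 reads correspond to a signal of 0.777, so changes in genes below that level were not detectable there.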

Other observations

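Genes that are not protein-coding held some of the smallest p-values at 24 h when the whole table was fitted with limma. Gm20186, a long intergenic RNA on chromosome 6 (chr6:18845910-18848207, GRCm38), read 157 and 167 untreated and 1500 and 1110 at 24 h (log2 2.99 ± 0.32, adjusted p = 9.4e-06). Gm12840, another long intergenic RNA, read 104, 144, 1240 and 1080 (3.23 ± 0.34, 9.4e-06). Both pairs are widely separated, and their level at 24 h is far above the limit of 3 reads. The span of Gm20186 overlaps that of another called long intergenic RNA, Gm26809 (chr6:18844220-18847360), which read 46.8, 57.9, 748 and 497. Whether the 2 share reads was not tested. Gm9973, a transcribed pseudogene, read 7.94, 8.12, 117 and 74.2, and the pseudogene Gm45551 373, 379, 2480 and 2040 (2.58 ± 0.28). Pseudogenes can take reads from their parent genes, so these 2 values are uncertain. AI838599 fell from 163 and 218 to 44.5 and 48.5 (−2.01, 0.0023), and AI506816 rose from 54.4 and 47.4 to 162 and 185 (1.76).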
